A study of Homo sapiens with 24 samples.

Results

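Transcript levels of 9 genes of the bone morphogenetic protein (BMP) pathway and its ID targets were followed through RAS-induced senescence (RIS) in IMR90 fibroblasts with and without the hairpin labelled shHMGA1. The genes were taken by symbol and Entrez identifier: the ligands BMP2, BMP4 and BMP6, the secreted antagonist GREM1, the inhibitory SMAD SMAD6, and ID1, ID2, ID3 and ID4. They are 9 of the 25702 genes counted in each library, and all 9 passed the filter on low counts, which kept 13356 genes. ID4 passed it mostly through its untreated libraries. The 9 genes were chosen by name and not by their values, but with earlier results of these data known.

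BMP ligands are secreted and bind pairs of type I and type II serine/threonine kinase receptors, which phosphorylate SMAD1, SMAD5 and SMAD9. These join SMAD4 and switch on target genes, among which the ID genes and SMAD6 are the best known. ID proteins carry a helix-loop-helix domain without the basic region that contacts DNA, so they pair with E proteins such as TCF3, TCF4 and TCF12 and keep them from binding, which is associated with proliferation and delayed senescence in fibroblasts. SMAD6 feeds back on the receptors and on SMAD1, and Gremlin, the product of GREM1, captures BMP ligands outside the cell.

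All libraries came from IMR90 cells, diploid fibroblasts from human lung, that stably carried ER:HRAS(G12V), a fusion of oncogenic HRAS to the oestrogen receptor that 4-hydroxytamoxifen (4OHT) activates. Growing cells had the control vector and no 4OHT, shHMGA1 cells had the hairpin and no 4OHT, RIS cells had the control vector and 4OHT for 6 days, and RIS+shHMGA1 cells had the hairpin and the same 4OHT treatment. Each group held 6 biological replicates, 24 libraries in all, of polyadenylated RNA. A single hairpin and a single fibroblast strain were used, untreated cells stood as the control for 4OHT, and no group received 4OHT without the RAS fusion.

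The total count per library ranged from 8698070 to 23103424 with a median of 10604084. HMGA1, the gene named in the hairpin's label, lay between 54.4 and 143 CPM (counts scaled to normalised library size) in shHMGA1 cells and between 639 and 861 CPM in growing cells. It was lower with the hairpin by a log2 fold change of -2.76 ± 0.31 (SE) in untreated cells (edgeR adjusted p = 1.92e-05) and -2.05 ± 0.30 in RAS-induced cells (edgeR adjusted p = 0.000648). With the hairpin, the replicates numbered 5 and 6 had less HMGA1 than the others, at 58.1 and 54.4 CPM untreated and 60.0 and 75.1 CPM with 4OHT. All 6 fibroblast marker genes (VIM, COL1A1, COL1A2, COL3A1, PDGFRB and THY1) were present, whereas the 3 epithelial, 3 endothelial and 3 leukocyte markers each summed to at most 2.01 CPM in any library. The summed fibroblast markers were lower in the groups with 4OHT, with medians of 26630 CPM in growing, 17470 in shHMGA1, 7218 in RIS and 4497 CPM in RIS+shHMGA1 cells, and their part in the results was not tested.

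A pair of libraries went against their labels. Growing replicate 4 had a root-mean-square distance over all tested genes of 1.32 log2 CPM from the other growing libraries. It lay 0.33 from RIS+shHMGA1 and 0.61 from RIS. RIS replicate 2 lay 1.08 from the other RIS libraries but 0.39 from growing. The RIS mean in the first case and the growing mean in the second each held the other departing library. HMGA1 in growing replicate 4 was 667 CPM, above the 60.0 to 262 CPM of RIS+shHMGA1. It lay within the 641 to 786 CPM of RIS and also within the 639 to 861 CPM of the other growing libraries. On the first principal component, which held 73.9% of the variance, growing replicate 4 scored 77.3 and RIS replicate 2 scored -77.1. Both were kept in their labelled groups, and values are given with and without them where leaving them out changed a call, a direction or an overlap or moved a called value. With 4OHT, replicates 5 and 6 also stood apart from the others of their group over all genes. Their first-component scores were 16.8 and 22.2 in RIS, against 56.0 to 62.1 in RIS replicates 1, 3 and 4. In RIS+shHMGA1 cells the scores were 52.5 and 58.2, against 78.5 to 84.1 in replicates 1 to 4. Some values of replicates 5 and 6 are named below for genes where they differ.

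Per kilobase of transcript, the 9 genes spanned a wide range of levels. In growing cells, the median over 6 libraries was 186 RPKM (CPM per kilobase of the canonical transcript) for GREM1, 178 for ID3, 99.3 for ID1, 64.2 for BMP2, 21.8 for ID2, 9.76 for BMP4, 8.84 for BMP6, 1.17 for SMAD6 and 0.417 for ID4. Neighbours in this order overlapped in their range over libraries, except BMP2 with ID2 and BMP6 with SMAD6. Without growing replicate 4 the order of the medians was the same, but ID3, at 139 to 212 RPKM, no longer overlapped ID1, at 69.2 to 109 RPKM, nor did SMAD6 overlap ID4. In RIS the order of the medians was GREM1 at 169 RPKM, BMP2 at 131, ID1 at 36.9, ID3 at 28.5, BMP6 at 8.36, ID2 at 3.38, BMP4 at 2.43, SMAD6 at 0.376 and ID4 at 0.0914. By median, BMP2 in RIS thus stood above ID1 and both above ID3, and BMP6 above ID2 and BMP4, the reverse of growing cells. The order of the medians was the same without RIS replicate 2. All of these reversed pairs overlapped in their RIS ranges with every library kept. Without RIS replicate 2, ID1 and ID3 still did, at 19.9 to 44.8 and 21.2 to 35.8 RPKM, and the other reversed pairs did not.

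**Figure D1:**
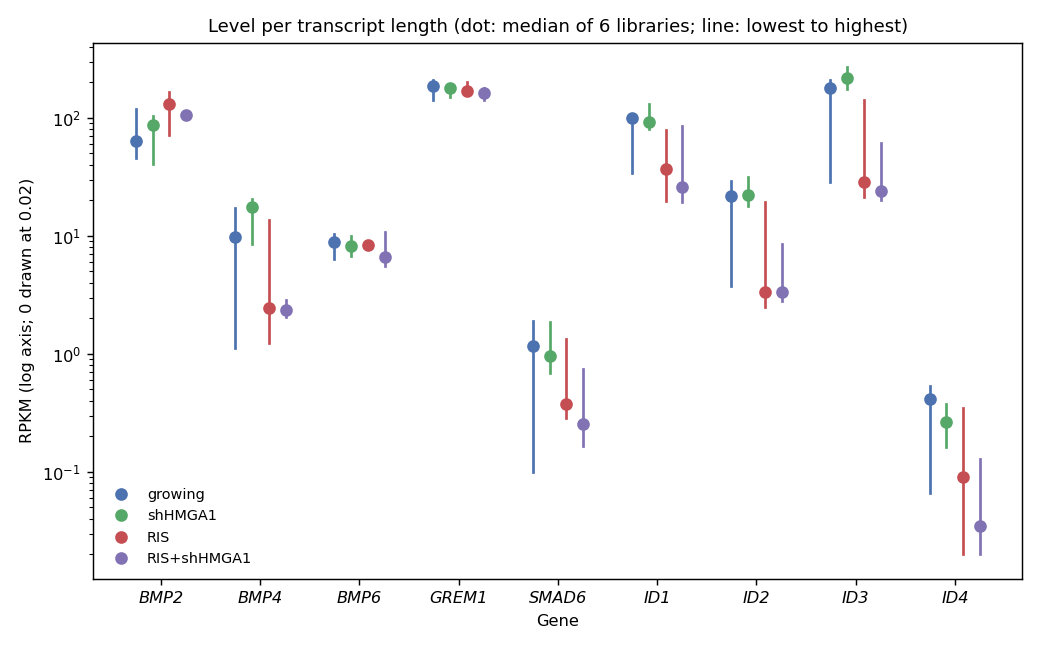
Level of each gene per kilobase of its canonical transcript, in RPKM on a log axis, in the 4 groups; dots are medians of 6 libraries and lines run from the lowest to the highest library. GREM1 stays between 142 and 211 RPKM in every library, while the ID genes, BMP4 and SMAD6 have lower medians in the 2 groups with 4OHT.

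The first comparison asked how the genes differed when RAS was switched on. In hairpin cells, where no library departed from its label, BMP4, SMAD6, ID1, ID2 and ID3 fell, 5 of the 9 genes, and none rose. Of all 13356 genes tested, 19.5% fell and 19.6% rose at the same thresholds (edgeR FDR below 0.01 and an absolute log2 fold change above 0.58) in this comparison, so changes were common among all genes. The median log2 fold change was -1.58 over the 9 genes and -0.02 over all genes tested. Without the departing libraries, which enter this comparison through the shared estimate of the spread, ID4 was also called, which made 6 lower against 21.9% of all genes. A fit of the hairpin libraries alone, which holds neither departing library, called 5 of the 9, without ID4. It called 5762 of 12936 genes tested, in either direction. ID4 held 0 to 5 reads in the 4OHT libraries of this comparison. Leaving out replicates 5 and 6 of every group with the departing libraries kept, the 5 genes missed the FDR threshold, with edgeR adjusted p from 0.0142 to 0.0198 and log2 fold changes from -3.16 to -1.96, and 0% of all genes passed. Once the departing libraries were left out too, 6 of the 9 and 47.7% of all genes were called, in either direction. In bulk RNA, fewer cells that express a gene and less RNA per cell cannot be told apart.

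In vector cells the same comparison depended on growing replicate 4 and RIS replicate 2. With all libraries kept, 0 of the 9 genes and 0% of all genes passed the edgeR thresholds, although 7 of the 9 and 4407 of all genes had an unadjusted p under 0.05. DESeq2 called 3 of the 9 and 6.21% of all genes, and limma's voom with sample quality weights called 7 of the 9 and 47.3% of all genes. With both libraries left out, edgeR called 7 of the 9: BMP2 rose, and BMP4, SMAD6, ID1, ID2, ID3 and ID4 fell. Of all genes, 19.2% rose and 20.5% fell in that fit. The median of the 9 was then -1.58, beside -0.01 over all genes tested. The ranges of growing and RIS did not overlap for 0 of the 9 genes with all libraries (0.367% of all genes) and for 6 of the 9 without the departing libraries (35.2% of all genes).

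**Figure D2:**
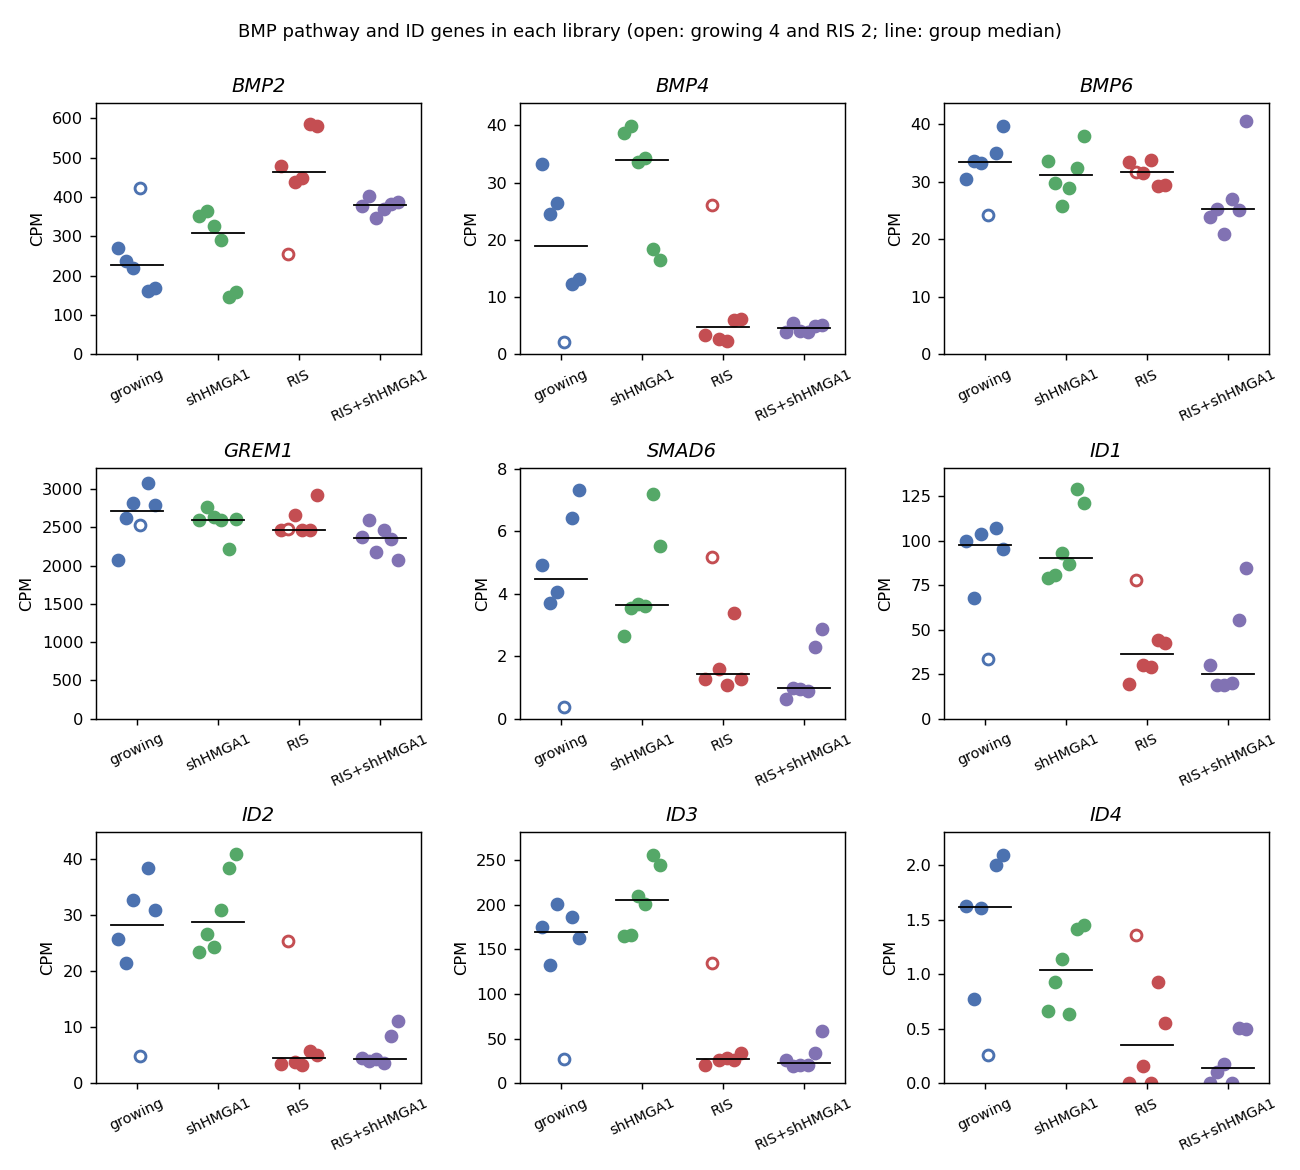
CPM of each gene in each of 24 libraries, by group, with replicates 1 to 6 from left to right within a group, a line at the group median and open symbols for growing replicate 4 and RIS replicate 2. In BMP4, SMAD6, ID1, ID2, ID3 and ID4 growing replicate 4 is the lowest growing library and RIS replicate 2 the highest RIS library, and in BMP2 the reverse.

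The 3 ligands behaved differently from each other. BMP2, which had the highest RPKM of them (chromosome 20, 6748333 to 6760893 on GRCh37), lay at 162, 228 and 422 CPM (lowest, median and highest of 6 libraries) in growing cells and at 256, 464 and 586 CPM in RIS. Growing replicate 4 held the highest growing value and RIS replicate 2 the lowest RIS value, at 422 and 256 CPM, and without them the groups were apart, at 162 to 271 and 438 to 586 CPM. The log2 fold change in vector cells was 0.91 ± 0.24 with all libraries (edgeR adjusted p = 0.0215, not called) and 1.26 ± 0.21, or 2.39-fold, without the pair (edgeR adjusted p = 1.3e-05). In hairpin cells BMP2 lay at 145, 308 and 366 CPM untreated and at 345.5, 379 and 402 CPM with 4OHT, groups that overlapped, with a difference of 0.47 ± 0.24 (edgeR adjusted p = 0.0962). Replicates 5 and 6 had the least BMP2 in both untreated groups, at 162 and 170 CPM in growing and 145 and 159 CPM in shHMGA1 cells, and the most in RIS, at 586 and 580 CPM. The other shHMGA1 libraries held 290 to 366 CPM. In RIS+shHMGA1 cells replicates 5 and 6 lay among the others, at 382 and 388 CPM. The difference in hairpin cells thus came mostly from the low untreated values of replicates 5 and 6.

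BMP4 (chromosome 14, 54416454 to 54425479) went the other way. In hairpin cells it lay at 16.4, 34.0 and 39.9 CPM untreated and at 3.93, 4.55 and 5.51 CPM with 4OHT, with no overlap, a log2 fold change of -2.71 ± 0.54 or 6.54-fold lower (edgeR adjusted p = 0.000465). In growing cells the values were 2.19, 18.8 and 33.3 CPM and in RIS 2.40, 4.69 and 26.1 CPM. The lowest growing library was replicate 4 and the highest RIS library replicate 2, and without them growing cells held 12.3 to 33.3 CPM and RIS 2.40 to 6.12 CPM. The fold change was -1.27 ± 0.51 with all libraries (edgeR adjusted p = 0.0883) and -2.41 ± 0.31 without the pair (edgeR adjusted p = 4.08e-07). As with BMP2, replicates 5 and 6 of the untreated groups held less BMP4 than replicates 1, 2 and 3, at 12.3 and 13.1 CPM in growing and 18.5 and 16.4 CPM in shHMGA1 cells. In RIS they held more, at 6.01 and 6.12 CPM, than replicates 1, 3 and 4, at 2.40 to 3.38 CPM.

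BMP6 (chromosome 6, 7726332 to 7881961) had no called difference with RAS. Its medians were 33.4 CPM in growing, 31.1 in shHMGA1, 31.6 in RIS and 25.2 CPM in RIS+shHMGA1 cells, and the ranges of all 4 groups overlapped. RIS+shHMGA1 overlapped RIS only through replicate 6, at 40.6 CPM. Its other libraries held 20.9 to 27.05 CPM, below the 29.2 to 33.7 CPM of RIS. The difference with RAS was -0.13 ± 0.14 in vector cells without the departing libraries and -0.21 ± 0.14 in hairpin cells, and neither passed (edgeR adjusted p = 0.424 and 0.178). A small difference remains possible at these standard errors. BMP6 shares exon bases with TXNDC5 on the opposite strand, and ID2 with ID2-AS1, both counted as genes of their own. The study used a stranded library kit, but the strand setting of the counting is not given. Whether the counts keep the reads of each pair apart is therefore not known.

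GREM1 (chromosome 15, 33010205 to 33037307) had the highest median RPKM of the 9 in growing, RIS and RIS+shHMGA1 cells, and it passed no test. Every one of the 24 libraries held 2075 to 3073 CPM, and the group medians were 2707, 2598, 2470 and 2358 CPM in growing, shHMGA1, RIS and RIS+shHMGA1 cells. The difference with RAS was -0.05 ± 0.11 in vector cells without the pair (edgeR adjusted p = 0.733) and -0.13 ± 0.11 in hairpin cells (edgeR adjusted p = 0.278). These standard errors leave room for a small difference and do not show that there was none.

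SMAD6 (chromosome 15, 66994574 to 67075187) is both an inhibitor of the pathway and one of its targets, and its counts were low, at 3 to 124 reads per untreated library and 5 to 57 with 4OHT. Its promoter and those of ID1, ID3 and ID4 are shown because these genes are known targets of SMADs that passed the test as lower with RAS, ID4 only without the departing libraries. ID2 also fell, but 202 of the 250 bases of its window lie in its annotated exons, and the window is not shown. The 250 bases before each start come from the RefSeq promoter table (GRCh38.p14) and were placed on GRCh37 by exact match: SMAD6 at chr15:66994324-66994573, ID1 at chr20:30192842-30193091 and ID4 at chr6:19837351-19837600 on the plus strand, and ID3 at chr1:23885993-23886242 on the minus strand. None overlaps an annotated exon of its gene except the last 6 bases of the ID1 window. Capitals mark GTCTAGAC, the palindromic SMAD box, in SMAD6, and TATAA, the core letters of a TATA box (searched on both strands, 2 overlapping matches in ID1), in the ID genes.
SMAD6: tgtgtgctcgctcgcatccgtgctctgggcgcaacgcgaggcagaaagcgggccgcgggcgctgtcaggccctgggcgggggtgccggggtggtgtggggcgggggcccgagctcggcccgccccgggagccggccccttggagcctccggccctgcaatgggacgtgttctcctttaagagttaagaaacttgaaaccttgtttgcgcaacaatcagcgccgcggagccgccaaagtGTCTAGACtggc
ID1: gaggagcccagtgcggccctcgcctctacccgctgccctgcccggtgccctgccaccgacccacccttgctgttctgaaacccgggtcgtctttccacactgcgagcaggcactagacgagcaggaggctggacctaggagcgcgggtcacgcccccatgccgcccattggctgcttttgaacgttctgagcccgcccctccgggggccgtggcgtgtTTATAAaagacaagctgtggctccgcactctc
ID3: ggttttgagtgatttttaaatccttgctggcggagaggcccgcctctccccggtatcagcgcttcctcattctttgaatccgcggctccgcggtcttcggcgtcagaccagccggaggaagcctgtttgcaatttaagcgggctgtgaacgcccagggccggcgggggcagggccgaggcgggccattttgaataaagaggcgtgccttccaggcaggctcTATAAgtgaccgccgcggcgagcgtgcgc
ID4: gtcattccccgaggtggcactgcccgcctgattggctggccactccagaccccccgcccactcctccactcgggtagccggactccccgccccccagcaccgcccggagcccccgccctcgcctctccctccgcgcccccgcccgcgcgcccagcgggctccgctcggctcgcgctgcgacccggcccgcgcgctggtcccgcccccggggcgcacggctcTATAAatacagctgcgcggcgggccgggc

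GTCTAGAC began 12 bases before the SMAD6 start, and 64 of the 35116 promoter windows of the table (0.182%) held it. TATAA began 29 bases before the start in ID3 and ID4, whereas in ID1 the overlapping matches began 32 and 31 bases before it. BMP4 also held TATAA, on the opposite strand, 28 bases before 1 of its starts. TATAA was chosen after the windows were read, and 18.9% of all windows hold it. GGCGCC, a GC-rich element bound by SMAD1 and SMAD5, was in none of these 4 windows and in 16.4% of all windows. Among the other members GREM1 held it 83 and 52 bases before a start and BMP4 232 bases before 1 of its starts. The composite GGCGCCNNNNNGTCT was in none of the 4 and in 0.0769% of all windows. A match is a description of the letters and not a bound site. Of the 9 genes, 8 had a window in the table.

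SMAD6 lay at 2.66, 3.64 and 7.20 CPM in shHMGA1 cells and at 0.634, 0.970 and 2.88 CPM in RIS+shHMGA1 cells. The groups overlapped through replicate 6 with 4OHT, at 2.88 CPM, and replicate 5 was next at 2.31 CPM. The log2 fold change was -1.58 ± 0.48 (edgeR adjusted p = 0.00796), and it lost its call when replicate 1, 2, 3 or 5 was left out, with adjusted p of 0.0232, 0.0162, 0.0328 and 0.0224. In vector cells it lay at 0.386, 4.48 and 7.31 CPM in growing and 1.09, 1.44 and 5.17 CPM in RIS. Growing replicate 4 was again the lowest of its group and RIS replicate 2 the highest of its own, and the fold change was -0.96 ± 0.46 with them (edgeR adjusted p = 0.146) and -1.58 ± 0.35 without them (edgeR adjusted p = 0.00042).

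Of the ID genes, ID3 and ID2 had larger fold changes than ID1, a difference between genes that was not tested. ID3 (chromosome 1, 23884417 to 23885992) lay at 166, 206 and 257 CPM in shHMGA1 cells and at 19.0, 22.8 and 58.2 CPM in RIS+shHMGA1 cells. Every library with 4OHT was below every untreated one, and the log2 fold change was -2.82 ± 0.46 or 7.05-fold lower (edgeR adjusted p = 0.000216). In vector cells the values were 27.0, 169 and 201 CPM in growing and 20.2, 27.1 and 135 CPM in RIS, where 27.0 CPM was growing replicate 4 and 135 CPM RIS replicate 2. With them left out, the log2 fold change was -2.68 ± 0.24 (edgeR adjusted p = 1.41e-09), beside -1.72 ± 0.44 with them (edgeR adjusted p = 0.0194, not called).

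ID2 (chromosome 2, 8818975 to 8824591) moved much like ID3. In hairpin cells it lay at 23.4, 28.7 and 40.8 CPM untreated and at 3.66, 4.35 and 11.1 CPM with 4OHT, without overlap, a log2 fold change of -2.36 ± 0.48 (edgeR adjusted p = 0.000541). In vector cells without the departing libraries it lay between 21.4 and 38.3 CPM in growing and between 3.27 and 5.67 CPM in RIS, a log2 fold change of -2.80 ± 0.26 or 6.95-fold lower (edgeR adjusted p = 2.96e-09). Growing replicate 4 held 4.89 CPM, within the RIS range, and RIS replicate 2 held 25.3 CPM, within the growing range. With both kept, the log2 fold change was -1.72 ± 0.47 (edgeR adjusted p = 0.022, not called).

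ID1 (chromosome 20, 30193086 to 30194318) fell less. It lay at 78.8, 90.1 and 129 CPM in shHMGA1 cells and at 19.2, 25.3 and 84.7 CPM in RIS+shHMGA1 cells, and the groups overlapped through replicate 6 with 4OHT. The log2 fold change was -1.36 ± 0.37 (edgeR adjusted p = 0.00351), and it lost its call without replicate 1, 3 or 5, at adjusted p of 0.0124, 0.0196 and 0.0105. In vector cells without the departing libraries it lay between 68.0 and 107 CPM in growing and between 19.5 and 44 CPM in RIS, a log2 fold change of -1.52 ± 0.32 (edgeR adjusted p = 0.000283), beside -1.06 ± 0.36 with them (edgeR adjusted p = 0.0509). Replicates 5 and 6 were the highest RIS+shHMGA1 libraries for ID1, ID2, ID3, ID4 and SMAD6, and for ID1 they held 55.3 and 84.7 CPM against 19.2 to 30.3 CPM in the other 4. They were also the highest shHMGA1 libraries for the same genes, before any 4OHT. For ID1 they held 128.9 and 121 CPM there, against 78.8 to 93.05 CPM in the other 4. In growing cells they were the highest for SMAD6 and ID4.

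ID4 (chromosome 6, 19837601 to 19842428) was close to the limit of detection, with at most 41 reads in a library and 0 reads in 2 RIS and 2 RIS+shHMGA1 libraries. Its highest counts were 41 and 23 reads in growing and shHMGA1 cells, against 15 and 5 in RIS and RIS+shHMGA1 cells. It passed the filter on low counts mostly through untreated libraries, so a call or a lack of overlap is not independent of it. ID4 lay at 0.630, 1.03 and 1.45 CPM in shHMGA1 cells and at 0, 0.136 and 0.501 CPM (0 to 5 reads) in RIS+shHMGA1 cells. The groups did not overlap, and the fitted log2 fold change of -2.16 ± 0.70 missed the threshold with all libraries (edgeR adjusted p = 0.0109) and passed it without the departing pair (edgeR adjusted p = 0.002). In vector cells it was -2.17 ± 0.52 without the pair (edgeR adjusted p = 0.000988) and -1.45 ± 0.58 with it (edgeR adjusted p = 0.0871). BMP4, ID2, ID3 and ID4 were thus the 4 of 9 genes whose hairpin groups did not overlap, where 43.4% of all genes did not.

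**Figure D3:**
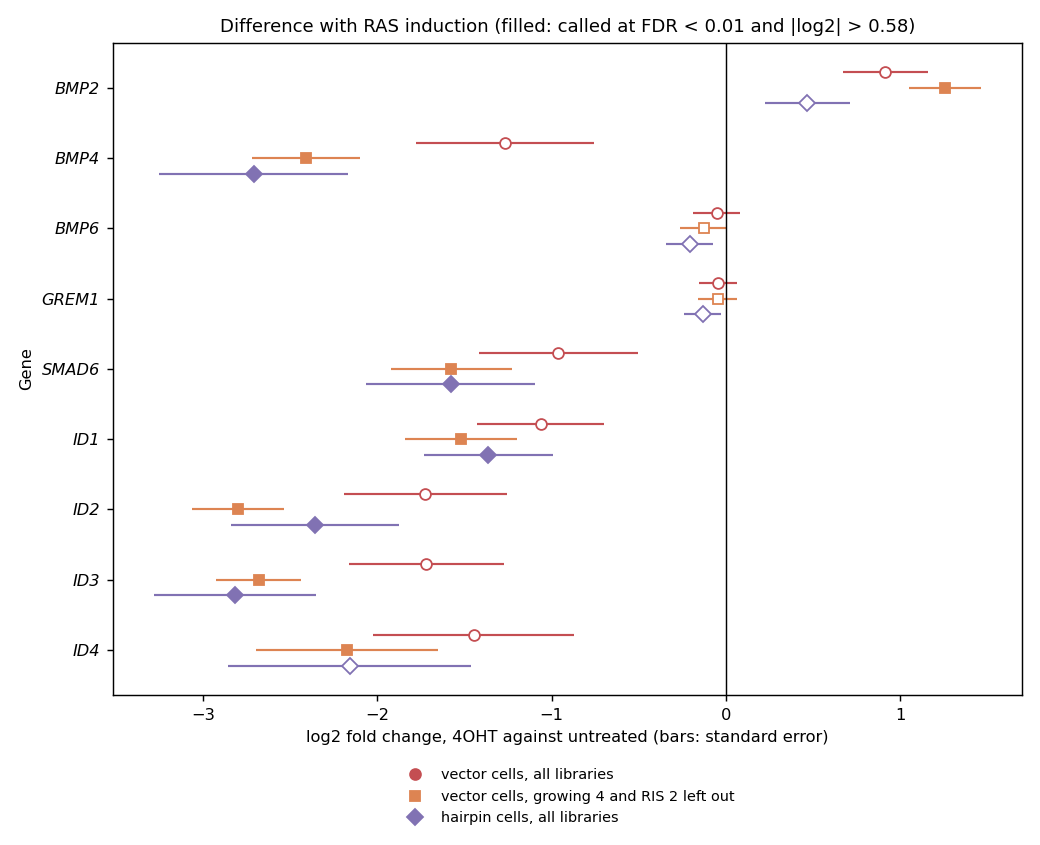
Log2 fold change of each gene with 4OHT against untreated cells, with its standard error, in vector cells with all libraries (circles), in vector cells without growing replicate 4 and RIS replicate 2 (squares) and in hairpin cells (diamonds); filled symbols passed the edgeR thresholds. BMP4, SMAD6 and the ID genes lie below 0 in all 3 estimates, BMP2 lies above 0, and BMP6 and GREM1 lie within 0.21 of 0.

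The second comparison asked whether the hairpin altered these genes or their change with RAS. Of the 9 genes, 0 passed the edgeR thresholds in shHMGA1 against growing cells, where 0.27% of all genes passed, and 0 in RIS+shHMGA1 against RIS, where 2.55% passed. At an unadjusted p under 0.05 there were 0 of 9 in both, beside 1759 and 6647 of all genes. DESeq2 also called 0 of the 9 in both, beside 0.734% and 11.5% of all genes, and voom 0 beside 6.33% and 13.9%. Without the departing libraries, 0 of 9 passed in either comparison, beside 2.59% and 12.5% of all genes, with 0 and 1 of the 9 at an unadjusted p under 0.05, as were 5221 and 6638 of all genes. The median of the 9 was then 0.05 in untreated and -0.15 in RAS-induced cells, beside -0.0010 and -0.03 over all genes tested.

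The direction of several of these small differences in RAS-induced cells turned on RIS replicate 2. With all libraries, BMP4, ID1, ID2 and ID3 differed between RIS+shHMGA1 and RIS by -0.76 ± 0.53, -0.08 ± 0.36, -0.38 ± 0.48 and -0.61 ± 0.44, and without the pair by 0.15 ± 0.33, 0.21 ± 0.31, 0.49 ± 0.27 and 0.14 ± 0.23. BMP2 was the member with the lowest p in that comparison, at -0.43 ± 0.19 without the pair (edgeR adjusted p = 0.0815). With all libraries BMP2 was at -0.30 ± 0.24 there. Its ranges then overlapped, at 345.5 to 402 CPM in RIS+shHMGA1 and 256 to 586 CPM in RIS. Once RIS replicate 2 was left out, RIS held 438 to 586 CPM, above every RIS+shHMGA1 library. BMP2 was the only member whose ranges were then apart in that comparison, where those of 14.9% of all genes were. In untreated cells BMP2 and BMP4 differed by 0.37 ± 0.20 and 0.45 ± 0.26 without the pair (edgeR adjusted p = 0.165 and 0.201), and by 0.15 ± 0.24 and 0.68 ± 0.49 with all libraries (edgeR adjusted p = 0.847 and 0.594). GREM1 and BMP6 lay within 0.22 of 0 in both comparisons, with and without the pair.

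The interaction of hairpin and RAS, which tests whether RAS changed a gene differently with the hairpin, passed for 0 of 9 genes and for 0% of all genes with all libraries, although 1371 of all genes and 0 of the 9 had an unadjusted p under 0.05. DESeq2 and voom also called 0 of the 9, beside 0.0225% and 0.0524% of all genes. Without the departing libraries it passed for 0 of 9 and for 0.00745% of all genes (1 gene), and 1 of the 9 and 512 of all genes had an unadjusted p under 0.05. The member was BMP2, whose difference with RAS was smaller with the hairpin, by an interaction of -0.79 ± 0.27 on the log2 scale (edgeR adjusted p = 0.943), and it does not hold up against the adjustment. With all libraries it was -0.45 ± 0.34 (edgeR adjusted p = 0.491). Without the pair the interaction of ID1, ID2 and ID3 was 0.16 ± 0.43, 0.45 ± 0.35 and -0.13 ± 0.31, and that of BMP4 and SMAD6 was -0.29 ± 0.42 and -0.0025 ± 0.34. With all libraries ID1, ID2 and ID3 stood at -0.30 ± 0.51, -0.63 ± 0.65 and -1.10 ± 0.62, and BMP4 and SMAD6 at -1.44 ± 0.73 and -0.62 ± 0.66, and none of them passed.

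**Figure D4:**
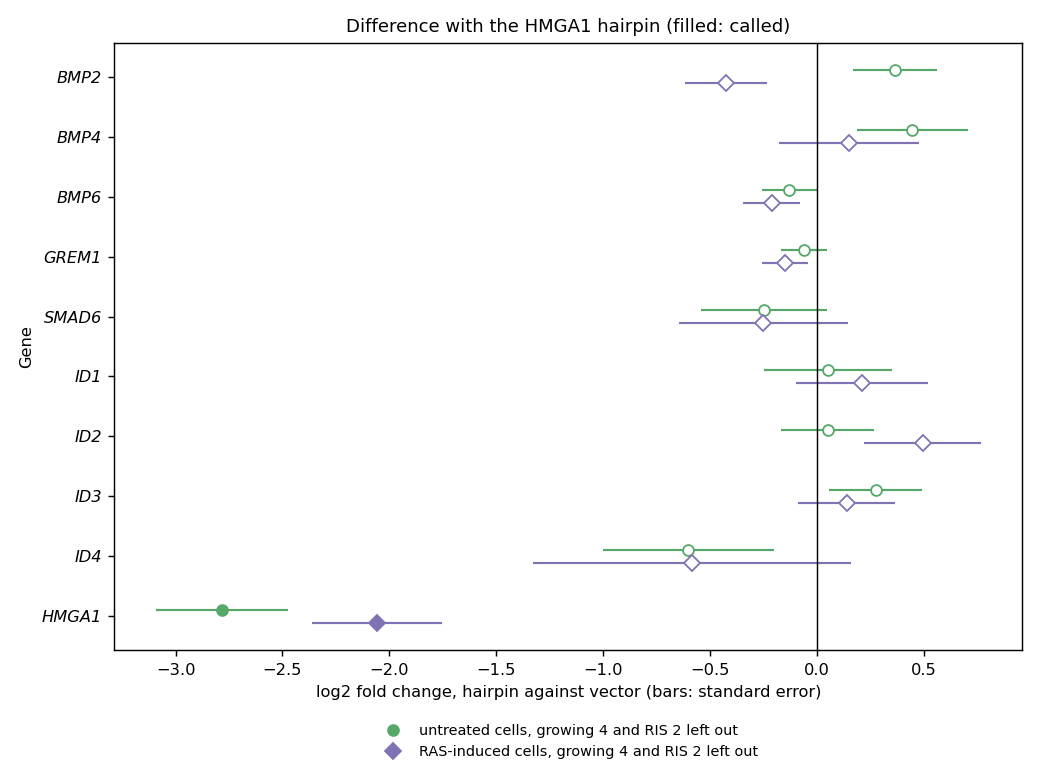
Log2 fold change of each gene and of HMGA1 with the hairpin against the control vector, with its standard error, in untreated cells (circles) and RAS-induced cells (diamonds), without growing replicate 4 and RIS replicate 2; filled symbols passed the edgeR thresholds. HMGA1 is the only gene drawn that passed, at -2.78 and -2.06.

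The rest of the pathway was described from a list of 51 genes in 6 roles, of which 33 were tested. In hairpin cells 4 of the 33 rose with RAS and 15 fell, with a median log2 fold change of -0.41, beside 19.6% and 19.5% of all genes and their median of -0.02. In vector cells without the departing libraries 35 were tested, 4 rose and 17 fell, with a median of -0.41, beside 19.2% and 20.5% of all genes and their median of -0.01. With all libraries 0 of 33 passed in vector cells, as did 0% of all genes. Unless stated, the values that follow are for hairpin cells with all libraries.

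Of 11 other ligands only BMP7 and GDF5 were tested in that fit, at -0.02 ± 0.21 and 0.10 ± 0.25, and neither passed (edgeR adjusted p = 0.952 and 0.723). Of 11 receptors and co-receptors 9 were tested, 4 fell and 1 rose. RGMB, a co-receptor of the BMP receptors, fell by 1.51 ± 0.32 on the log2 scale (edgeR adjusted p = 0.00069). BMPR2, a type II receptor of BMP ligands, fell by 1.35 ± 0.29 (edgeR adjusted p = 0.000797). The pseudoreceptor BAMBI rose by 0.87 ± 0.19 (edgeR adjusted p = 0.000922). The type I receptor ACVR1 and the co-receptor ENG also fell, and BMPR1A, the main type I receptor for BMP2 and BMP4, was at -0.02 ± 0.13.

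Of 12 other secreted or membrane-bound antagonists listed besides GREM1, 7 were tested, 5 fell and 0 rose, with a median of -1.29, where 19.5% of all genes fell. FST, which traps activins and some BMPs, fell by 3.26 ± 0.58 (edgeR adjusted p = 0.000265), CRIM1, a transmembrane BMP-binding protein, fell by 2.61 ± 0.54 (edgeR adjusted p = 0.000609), and FSTL3, a relative of FST, fell by 1.69 ± 0.29 (edgeR adjusted p = 0.00024). NOG and TWSG1 fell as well, and BMPER and NBL1 did not pass. In vector cells without the departing libraries 6 of the 7 fell, BMPER among them.

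The SMADs did not move as 1 group. Of 7 SMADs and SMURFs, SMAD1, which carries the BMP signal, rose by 1.03 ± 0.26 (edgeR adjusted p = 0.00235), and SMAD9, the third SMAD of this class, fell by 3.31 ± 0.77 (edgeR adjusted p = 0.00128). SMAD5, also of this class, was at -0.20 ± 0.12 (edgeR adjusted p = 0.146), and the inhibitory SMAD7, the relative of SMAD6, at -0.14 ± 0.18 (edgeR adjusted p = 0.51). The shared partner SMAD4 differed by -0.39 ± 0.08 (edgeR adjusted p = 0.000842), which was below the fold threshold.

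Other reported BMP targets went both ways. Of 7 listed, 5 were tested, 2 fell and 2 rose. ATOH8, a helix-loop-helix factor, fell by 3.47 ± 0.71 (edgeR adjusted p = 0.000576), while HEY1, better known as a NOTCH target, rose by 1.52 ± 0.37 (edgeR adjusted p = 0.0019), and RUNX2, a regulator of bone formation, fell by 1.25 ± 0.31 (edgeR adjusted p = 0.00211). MSX1 rose and MSX2 did not pass. All 3 E proteins, the partners of ID proteins, fell: TCF4 by 1.89 ± 0.33 (edgeR adjusted p = 0.000234), TCF12 by 0.92 ± 0.18 (edgeR adjusted p = 0.000478) and TCF3 by 0.91 ± 0.18 (edgeR adjusted p = 0.000433).

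**Figure D5:**
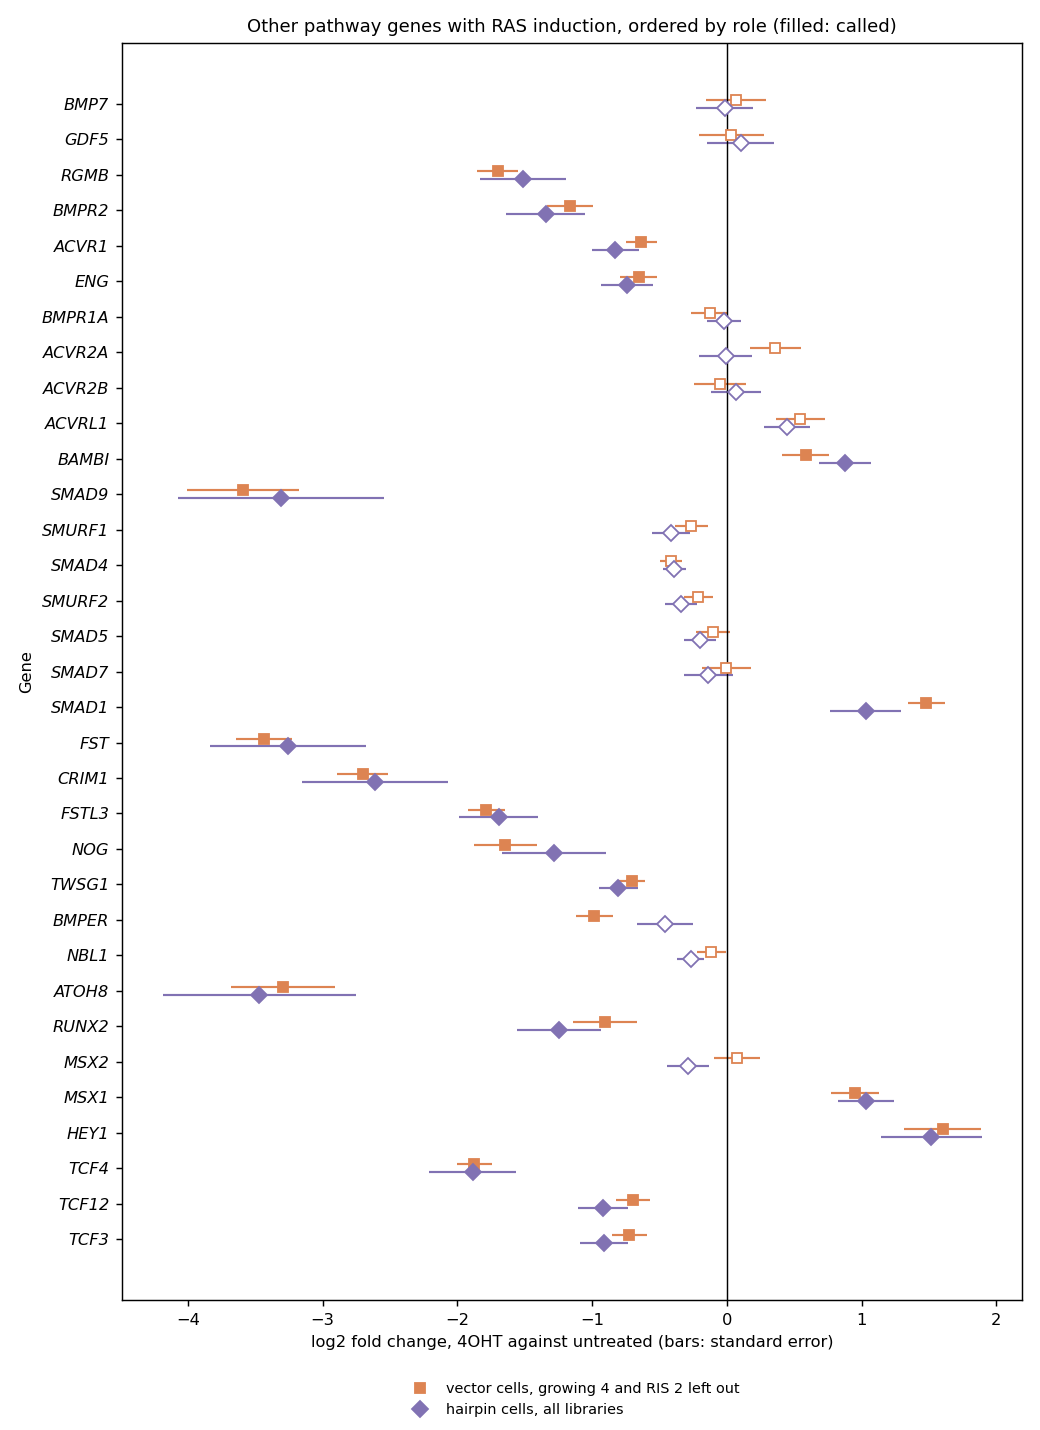
Log2 fold change with 4OHT against untreated cells, with its standard error, of the 33 other pathway genes tested in hairpin cells (diamonds, all libraries) and in vector cells (squares, without growing replicate 4 and RIS replicate 2), ordered from top to bottom as ligands, receptors, SMADs and SMURFs, antagonists, targets and E proteins; filled symbols passed the edgeR thresholds. FST, CRIM1, SMAD9 and ATOH8 lie beyond -2 in both, and SMAD1, BAMBI, MSX1 and HEY1 passed above 0 in both.

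With the hairpin and all libraries, 0 of 33 passed in shHMGA1 against growing (0.27% of all genes) and 1 of 33 in RIS+shHMGA1 against RIS (2.55% of all genes), where ENG fell by 0.83 ± 0.19 (edgeR adjusted p = 0.00975). Without the departing libraries, RGMB and BMPER were lower with the hairpin in untreated cells, at -0.77 ± 0.14 and -0.80 ± 0.13 (edgeR adjusted p = 0.00121 and 0.000431), and RGMB, BMPR2 and ENG were lower in RAS-induced cells, 2 and 3 of 35 beside 2.59% and 12.5% of all genes. The interaction passed for 0 of 33, and for 0 of 35 without the pair.

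The genes whose pattern over the 24 libraries was most like each of the 5 that fell were found by the smallest root-mean-square difference of centred log2 CPM, a description with no test in which the departing libraries and the RAS difference weigh heavily. ID2 and ID3 were each other's nearest of all tested genes, at 0.262 log2 CPM, while each varied over libraries with an SD of 1.34 and 1.43. MCM5 and TYMS, both used in DNA replication, came next for ID2 and ID3, at 0.312 and 0.323, followed by CCDC3 and by ASF1B, a histone chaperone. ID1 was nearest to IER5L, NR2F1 and BDKRB1, BMP4 to WNT16, COL4A6 and CAVIN2, and SMAD6 to FZD1, SMAD3 and KANK1. Their distances were 0.267 for IER5L, 0.342 for WNT16 and 0.405 for FZD1.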

How the data were processed

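RNA-seq counts of 24 IMR90 ER:HRAS(G12V) libraries, 6 in each of 4 groups, were analysed, with groups and replicate numbers taken from the labels. Reads had been mapped to hg19 with STAR 2.5.0b after adapter trimming with cutadapt 1.10.0, per the submitters' processing notes, reads of low mapping quality were removed and Rsubread counted reads per gene. The authors deposited unnormalised whole counts of reads, 1 value per gene identifier (Entrez). The version, annotation and strand setting of the counting are not given in the sources used here. Symbols were matched by identifier to RefSeq, which named 23696 of 25702.

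edgeR 4.0.16 (R 4.3.3, limma 3.58.1) was fitted to all 24 libraries: filterByExpr by group, TMM, group means, quasi-likelihood tests, and 5 comparisons, with the study's thresholds, a fold change beyond 0.58 on the log2 scale in either direction and an FDR (Benjamini-Hochberg) under 0.01. SEs are the log2 fold change divided by the root of the F statistic. CPM uses TMM library sizes, log2 CPM a prior count of 2, and RPKM the length of the GENCODE canonical transcript on GRCh37. The alternatives were DESeq2 1.42.0, RLE factors, other filters, the replicate number as a block, samples of the contrast only, an FDR of 0.05, voom with quality weights, leaving out each replicate number, and leaving out growing replicate 4 and RIS replicate 2. Fits without numbers 5 and 6, and the block without the departing libraries, were added after seeing the data. The scripts were tested on simulated data.

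The 9 genes, the pathway list and the choice of libraries to leave out were made with earlier results of these data known. Beyond the 9, the text names HMGA1, up to 3 called pathway genes per role by size of change in RIS+shHMGA1 against shHMGA1, and 3 nearest genes for each called gene; any other list gene named was picked after its values were seen. Of the pathway list as first set, 1 gene is not reported here. Library depth bounds precision at low counts: SMAD6 and ID4 had at most 124 and 41 reads in any library. P-values rest on replicates that the study calls biological. No pair of libraries in a group differed by as little as sampling noise, but the distances were uneven. RIS replicates 1, 3 and 4 differed by a chi-square per gene of 3.80 to 4.46, and from replicates 5 and 6 by 39.6 to 96.7. RIS+shHMGA1 replicates 1 to 4 differed by 2.89 to 15.6, and from replicates 5 and 6 by 31.5 to 66.8. The fits without a block treat all replicates as equally independent, which was not tested.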

Additional observations from a re-analysis of the deposited data

Results flagged for a closer look

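In groups of 6, a highest or lowest value whose gap to its neighbour exceeded Dixon's 95% limit as a share of the group's range was set aside for a closer look. Of 44 such tests 8 passed, where chance gives about 1 in 20, or 2.2. RIS replicate 2 was high for BMP4 (gap 0.843 of the range, 26.1 CPM), ID2 (0.891, 25.3 CPM) and ID3 (0.88, 135 CPM), and it lies nearer to growing than to RIS over all genes. RIS+shHMGA1 replicate 6 was high for BMP6 (0.689, 40.6 CPM) and ID3 (0.628, 58.2 CPM). shHMGA1 replicate 5 was low for GREM1 (0.685, 2213 CPM). The total counts of growing replicate 1 (0.796, 23103424 reads) and RIS replicate 3 (0.684, 13195878 reads) were the highest of their groups.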

How the results depend on the processing

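Across the alternatives, 689 fold changes of the 9 genes kept their direction and their side of the thresholds, 50 gained a call, 12 lost one and 48 turned direction. Of the 12 lost calls, 7 were of SMAD6 and ID1 without single replicates, and 5 came when numbers 5 and 6 were left out with the departing libraries kept. The causes were not tested.

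RIS against growing gave 0 genes of 9 and 0 of all genes in the analysis as reported. It gave 3 and 829 with DESeq2, 3 and 1537 at an FDR of 0.05, 7 and 6317 with voom, 7 and 5331 without the departing pair, and 7 and 6444 when numbers 5 and 6 were left out as well. Leaving out 1 number gave 0 to 5 of the 9 and 0 to 2083 of all genes, with 5 and 1834 without number 2 and 3 and 2083 without number 4. RIS+shHMGA1 against shHMGA1 gave 5 and 5220, 3 to 6 and 3037 to 5502 without 1 number, and 0 and 0 without numbers 5 and 6. shHMGA1 against growing gave 36 of all genes, 98 with DESeq2, 23 without a filter, 5 with the samples of the contrast only, 85 at an FDR of 0.05, 845 with voom, 348 without the departing pair, 5 without numbers 5 and 6, 964 without all of these, and 5 to 25 without 1 number. RIS+shHMGA1 against RIS gave 341 of all genes, 1533 with DESeq2, 189 without a filter, 2898 at an FDR of 0.05, 1856 with voom, 1677 without the departing pair, 15 without numbers 5 and 6, 1404 without all of these, and 14 to 2205 without 1 number. The interaction gave 0 of all genes, 3 with DESeq2, 2 at an FDR of 0.05, 7 with voom, 1 without the departing pair, 8 without numbers 5 and 6 as well, and 0 to 1 without 1 number.

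Deviations from the group means correlated above 0.1 in 24 of 36 same-number pairs of libraries (mean 0.175, from -0.594 to 0.828). Of different-number pairs, 57 of 180 did (mean -0.050), and 8 of 24 libraries correlated best with their own number. The departing libraries were part of the growing and RIS means and shift the deviations there. The check therefore cannot decide whether the numbers pair the libraries. With the replicate block, RIS against growing gave 0 of 9 and 1 of all genes, RIS+shHMGA1 against shHMGA1 6 and 5667, and RIS+shHMGA1 against RIS 0 and 1637. With the block and without the departing pair, all genes called were 5246 in RIS against growing (7 of 9), 484 in shHMGA1 against growing, 1938 in RIS+shHMGA1 against RIS and 2 in the interaction.

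None of the 48 log2 fold changes that turned direction was called on either side. Leaving out 1 number gave ranges that crossed 0 for 11 of the differences. In RIS against growing these were BMP6 (-0.13 to 0.027) and GREM1 (-0.086 to 0.014), in shHMGA1 against growing GREM1 (-0.10 to 0.038) and SMAD6 (-0.23 to 0.11), in RIS+shHMGA1 against RIS BMP4 (-0.91 to 0.093), ID1 (-0.47 to 0.35), ID2 (-0.75 to 0.59) and ID3 (-0.99 to 0.24), and for the interaction ID1 (-0.66 to 0.14), ID2 (-0.97 to 0.34) and ID4 (-1.10 to 0.10). Without numbers 5 and 6, GREM1 and BMP6 were 0.0097 and 0.11 in RIS against growing, and GREM1 and SMAD6 were 0.089 and 0.011 in shHMGA1 against growing. With the departing pair also left out, GREM1 and BMP6 were 0.019 and 0.029 in the first, GREM1, ID1 and ID2 were 0.089, -0.087 and -0.0078 in the second, BMP4, ID2 and ID4 were 0.61, 0.19 and 0.29 in RIS+shHMGA1 against RIS, and they were 0.23, 0.20 and 0.99 for the interaction. Without the departing pair alone, BMP4, ID1, ID2 and ID3 were 0.15, 0.21, 0.49 and 0.14 in RIS+shHMGA1 against RIS, and ID1, ID2 and ID4 were 0.16, 0.45 and 0.016 for the interaction. With the replicate block added to that, the former were 0.054, 0.19, 0.52 and 0.16 and the latter 0.12, 0.46 and 0.055, with SMAD6 at 0.050, and with the replicate block and all libraries SMAD6 was 0.015 in shHMGA1 against growing. Voom gave 0.43, 0.26 and 0.13 for BMP4, ID2 and ID4 in RIS+shHMGA1 against RIS, and 0.070 and 0.37 for ID2 and ID4 in the interaction. Depth limits SMAD6 and ID4, whose fold changes rest on counts down to 3 and 0.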
